A study of Mus musculus with 4 samples.

Results

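Inflammasomes are the protein platforms on which macrophages activate inflammatory caspases, and 10 of their genes were followed here in RNA-seq libraries of cultured mouse macrophages. The genes were listed by name and not by a threshold on a measured value, although earlier results of these data were known: the sensors Nlrp3, Nlrc4, Naip2, Naip5, Naip6 and Aim2, the adaptor Pycard, the proteases Casp1 and Casp4, and the pore-forming protein Gsdmd. All 10 were found among the 34745 genes measured, each under a single identifier, and all 10 passed the filter on low counts that left 12418 genes for testing. The macrophages were derived from bone marrow. Control libraries (WT) came from mice with floxed G3bp1 alleles (G3bp1 f/f), and KO libraries (G3bp1mac-/-) from such mice that also carried Lyz2-Cre, so the floxed alleles were common to both groups. Lyz2-Cre acts in monocytes and granulocytes as well as in macrophages. Each genotype had 2 libraries, called WT1, WT2, KO1 and KO2 by their numbers in the labels. The labels give neither the age of the mice nor whether the libraries came from separate animals, and no stimulus is named for these cultures, so the p-values measure only the spread between these libraries.

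In an inflammasome, a sensor that has met its ligand gathers the adaptor ASC, the product of Pycard, which in turn gathers caspase-1. Caspase-1 cuts the precursors of the cytokines IL-1β and IL-18 and the protein gasdermin D, whose freed fragment opens pores in the plasma membrane. In resting macrophages several sensors and caspases are present at low level, and NF-κB or interferon signalling raises some of them, above all Nlrp3, Il1b and Casp4, a step called priming.

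The depth was 16724241 to 19747909 counts per library, so that a count of 0 allowed a level of up to 0.152 to 0.188 CPM, counting error only. CPM are counts divided by the scaled library total. The targeted gene was examined first. G3bp1 had 104 and 180 CPM in WT1 and WT2 and 70.1 and 117 CPM in KO1 and KO2. KO differed from WT by a log2 fold change (log2FC) of -0.61 (SE 0.40, edgeR adjusted p = 0.904), and this value ran from -1.03 without KO2 and -0.95 without WT1 to -0.28 without KO1 and -0.19 without WT2. KO lay below WT within each number, by log2 ratios of -0.57 (KO1 to WT1) and -0.63 (KO2 to WT2), and KO2 lay above WT1. Counts over the whole gene do not resolve the loss of an exon, so they are a limited check of the labels. Macrophage markers summed to between 21247 and 26583 CPM in every library. Markers of stromal cells summed to 78.7 and 92.1 CPM in WT and to 345 and 323 CPM in KO, with KO1 and KO2 above WT1 and WT2 for 7 of 8 markers. Markers of neutrophils summed to 9.23 and 12.0 CPM in KO against 30.0 and 25.7 CPM in WT, with Mpo and Elane at 0 counts in all 4 libraries. KO1 and KO2 lay below WT1 and WT2 for 4 of these 10 markers and above for 0. At most 3 counts in every library were found for 4 of the 10. Mast cell and basophil markers summed to 40.9 and 42.9 CPM in WT and to 20.8 and 24.7 CPM in KO, and B cell markers to 13.0 and 16.0 CPM against 8.32 and 7.37 CPM. KO lay below WT without overlap for 4 of 7 of the former (above for 1) and 4 of 4 of the latter. The marker lists of dendritic cells and of T and NK cells summed to between 0.565 and 7.78 CPM, and neither separated the genotypes. The part of these other cells in the results was not tested. The libraries also fell apart by number: 1114 of 12418 genes differed between the libraries numbered 2 and those numbered 1 in edgeR's quasi-likelihood test. This count was 404 with no genotype term, and, in fits that also had none, 558 without WT1, 382 without WT2, 860 without KO1 and 516 without KO2. The labels do not say what the number marks.

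The sequences of 2 sets of genes bear on what follows. The first set is the NAIP genes, neighbouring copies on the minus strand of chromosome 13 whose reads are hard to assign. Naip5 and Naip6 were identical at 4081 of 4209 coding bases (97.0%), and Naip2 was identical to Naip5 at 3784 of 4205 aligned bases. The first 90 coding bases of the 3 genes, from GENCODE M21 transcripts, show how close the copies are, with capitals at each base that differs from Naip5 (6 in Naip6 and 26 in Naip2).
Naip5: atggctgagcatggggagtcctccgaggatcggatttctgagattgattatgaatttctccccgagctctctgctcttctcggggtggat
Naip6: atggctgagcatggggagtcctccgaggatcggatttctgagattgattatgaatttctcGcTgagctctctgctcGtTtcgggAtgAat
Naip2: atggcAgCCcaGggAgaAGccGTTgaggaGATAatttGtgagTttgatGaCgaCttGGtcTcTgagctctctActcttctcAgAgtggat
Of all stretches of 100 bases in the annotated transcripts, 16.2% in Naip5, 6.26% in Naip6 and 4.44% in Naip2 also occurred in another gene. How reads of such stretches were assigned is not given in the sources used here, so the split of counts among these genes is uncertain. A share of 10.3% was found in Pycard, all of it with Gm45205, a transcript on the opposite strand that had at most 2 counts in any library. The other 6 genes shared none.

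The second set is the promoters of Nlrp3 and Casp4, the members of the 10 that differed most between the libraries numbered 2 and 1, and of Casp1, the neighbour of Casp4. Casp1 ends 1562 bases before Casp4 begins, on the same strand of chromosome 9. The 250 bases before the RefSeq start site are given on the plus strand of GRCm38.p6, at chr11:59541319-59541568 for Nlrp3, chr9:5308599-5308848 for Casp4 and chr9:5298267-5298516 for Casp1. Capitals mark matches to the NF-κB consensus, searched by name on both strands.
Nlrp3: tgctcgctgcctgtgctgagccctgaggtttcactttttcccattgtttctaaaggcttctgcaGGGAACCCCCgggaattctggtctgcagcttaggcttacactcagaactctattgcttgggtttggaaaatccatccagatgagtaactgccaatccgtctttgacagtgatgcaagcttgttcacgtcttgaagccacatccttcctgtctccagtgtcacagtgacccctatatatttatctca
Casp4: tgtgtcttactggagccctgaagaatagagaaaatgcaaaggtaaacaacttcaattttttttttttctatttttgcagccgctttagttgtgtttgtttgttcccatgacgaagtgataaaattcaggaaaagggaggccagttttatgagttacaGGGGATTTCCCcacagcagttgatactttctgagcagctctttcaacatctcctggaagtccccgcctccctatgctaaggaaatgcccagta
Casp1: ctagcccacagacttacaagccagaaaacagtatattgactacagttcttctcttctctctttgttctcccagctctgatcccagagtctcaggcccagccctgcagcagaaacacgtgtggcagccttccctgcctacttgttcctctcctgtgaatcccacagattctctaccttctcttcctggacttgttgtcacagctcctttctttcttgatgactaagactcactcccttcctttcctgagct
The match in Nlrp3 lay on the minus strand, 186 to 177 bases before the start site. In Casp4, 3 overlapping matches on both strands lay between 93 and 83 bases before it, and Casp1 held none. Nlrp3 has a further promoter in the same source, not printed here, and that one held none either. The consensus was found in 4.51% of the 32851 mouse promoters in the same table, counted over 250 bases before and 50 after the start. Of the 9 inflammasome genes with an entry in it, Naip5 was the third with a match. The interferon response core GAAANNGAA was found in Naip2 alone (8.56% of all promoters), the STAT site TTCNNNGAA in none (8.3%), and the PU.1 core GAGGAAG in Aim2, in Pycard and in the other of 2 Nlrp3 promoters (13.6%). These are matches of letters and show no binding.

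How much of each transcript the macrophages held is seen on a scale per length, FPKM (fragments divided by gene length and library total). Casp1 had the highest level of the 10 genes in all 4 libraries, 67.5 to 140 FPKM. Gsdmd followed with 29.0 to 45.5 FPKM and Pycard with 24.0 to 34.5 FPKM, and these 2 ranges overlapped. Naip2 (15.6 to 22.5 FPKM) lay above Naip5 (4.37 to 7.08 FPKM), Naip6 (2.18 to 4.88 FPKM) and Nlrc4 (1.99 to 2.94 FPKM) in every library. The ranges of Naip6 and Nlrc4 overlapped. Aim2 stayed within 6.67 to 8.50 FPKM. Casp4 and Nlrp3 had no fixed place in this order. Casp4 had 5.29 and 3.71 FPKM in WT1 and KO1 but 31.9 and 25.8 FPKM in WT2 and KO2. Nlrp3 had 0.537 and 0.627 FPKM in WT1 and KO1, the lowest of all 10 genes there, and 17.3 and 11.7 FPKM in WT2 and KO2. The plot of the 10 genes by library shows this on the CPM scale.

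**Figure D1:**
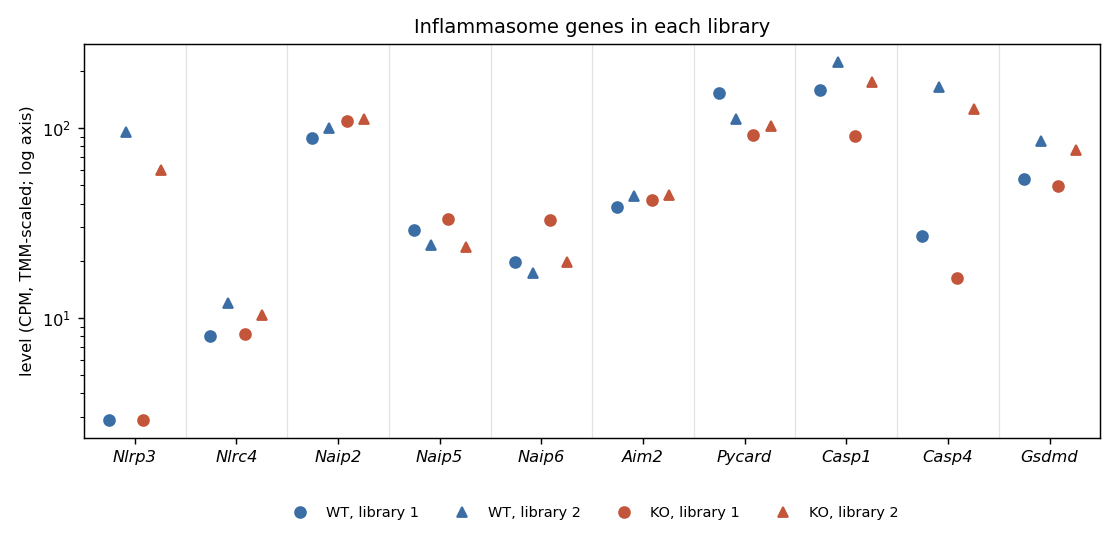
Level of each inflammasome gene in the 4 libraries, in CPM on a log axis, with WT in blue, KO in red, libraries numbered 1 as circles and those numbered 2 as triangles. Nlrp3 and Casp4 are split by library number (2.90 against 60.4 to 94.7 CPM for Nlrp3) and the other 8 genes vary less.

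The first comparison asked whether deletion of G3bp1 was accompanied by other levels of these transcripts. Of the 10 genes, 0 passed the test between KO and WT (edgeR's quasi-likelihood test, adjusted p under 0.05 and log2FC above 1 or below -1), where 0% of all tested genes were called higher and 0% lower. At an unadjusted p under 0.05 there were 0 of the 10 and 823 of the 12418 genes, and the DESeq2 Wald test and edgeR's exact test called 181 and 174 genes, none of the 10 among them. KO1 and KO2 exceeded WT1 and WT2 for Naip2 and Naip6, 2 of 10 genes against 20.0% of all tested genes. They lay below for Pycard, 1 of 10 against 16.9%. The median log2FC was -0.13, beside 0.041 over all tested genes. It was 0.016 for KO1 against WT1 and -0.15 for KO2 against WT2, beside 0.11 and -0.0013 over all genes.

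Nlrp3 senses loss of ion balance and many other disturbances, and its own level limits the response (chromosome 11, 59541568 to 59566956, plus strand). It had 2.90 and 94.7 CPM in WT1 and WT2 and 2.90 and 60.4 CPM in KO1 and KO2. Low and high values occurred in both genotypes, and the ranges overlapped. The log2FC of KO against WT was -0.62 with a 95% confidence interval (CI) from -5.08 to 3.84 (edgeR adjusted p = 0.982), in a fit with genotype as its only term. Its sign changed with the library left out: it was 3.41 without WT2 and 0.31 without KO1, and -4.08 without KO2 and -1.58 without WT1. Each of these fits left the numbers unequal between the genotypes and had no term for them, so it cannot separate genotype from number. Within a number the values were closer, with 47 counts in WT1 and 54 in KO1 (log2 ratio -0.0018 after scaling), and 1509 in WT2 and 1189 in KO2 (-0.65).

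NAIP proteins bind bacterial flagellin (Naip5 and Naip6) or the inner rod of type III secretion systems (Naip2) and then recruit NLRC4. Naip2 (chromosome 13, 100144063 to 100202092) had 88.2 and 100 CPM in WT and 109 and 111 CPM in KO. Both KO values were the higher ones, by a log2FC of 0.22 (95% CI -0.34 to 0.78, edgeR adjusted p = 0.957). Naip6 (chromosome 13, 100281121 to 100317674) had 19.6 and 17.3 CPM in WT1 and WT2 and 32.7 and 19.8 CPM in KO1 and KO2. The KO values were again the higher ones, but KO2 lay just above WT1. The log2FC was 0.51 (95% CI -0.28 to 1.3, edgeR adjusted p = 0.902) and fell to 0.11 without KO1. Naip5 (chromosome 13, 100211739 to 100246323) had 29.1 and 24.2 CPM in WT and 33.1 and 23.7 CPM in KO, and here the groups overlapped. Its log2FC of 0.091 (SE 0.27, edgeR adjusted p = 0.982) became -0.17 without KO1 and -0.071 without WT2, and also turned to -0.029 with a trend in gene length removed. Because the copies can exchange reads, their sum was also taken. It leaves out Naip1 and Naip3, which share 100-base stretches with all 3 genes. Naip2, Naip5 and Naip6 together had 137 and 142 CPM in WT and 175 and 154 CPM in KO. KO1 and KO2 exceeded WT1 and WT2 for the sum as well, a value that was not tested. The sum was mostly Naip2 in every library, with 1430 of 2220 counts in WT1 and 2031 of 3256 in KO1.

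Nlrc4, the partner of all NAIP proteins, had the lowest mean level of the 10 genes per length (chromosome 17, 74426295 to 74459108, minus strand). Its levels were 8.01 and 12.0 CPM in WT and 8.21 and 10.4 CPM in KO, which overlapped. The log2FC was -0.11 (SE 0.33, edgeR adjusted p = 0.984). It became 0.054 without KO1 and 0.18 without WT2, and it was also above 0 on the FPKM scale, at 0.042 and 0.062 with 1 and 0.1 added. The summed FPKM of the 3 NAIP genes was 8.19 to 14.5 times that of Nlrc4 over the 4 libraries.

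Aim2 binds double-stranded DNA in the cytosol (chromosome 1, 173350879 to 173466040, plus strand). It had the narrowest relative range of the 10 genes, with 38.2 and 43.6 CPM in WT and 41.6 and 44.5 CPM in KO. The groups overlapped, and the log2FC was 0.076 (95% CI -0.49 to 0.64, edgeR adjusted p = 0.982). This value lay so near 0 that it became -0.016 without WT1 and -0.043 with the length trend removed. Cadm3, which overlaps Aim2 on the opposite strand, had 0 to 14 counts, against 619 to 876 for Aim2.

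Pycard encodes the adaptor on which caspase-1 assembles (chromosome 7, 127989708 to 127993867, minus strand). It had 153 and 111 CPM in WT1 and WT2 and 91.9 and 102 CPM in KO1 and KO2. Both KO values lay below both WT values, although WT2 and KO2 were close, with a log2 ratio of -0.12, where KO1 against WT1 gave -0.74. The log2FC was -0.45 (95% CI -1.11 to 0.22, edgeR adjusted p = 0.893). It was -0.19 without WT1 and -0.70 without WT2.

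Casp1 and Casp4 encode the proteases that carry out the response. Caspase-1 acts within the inflammasome, and caspase-4 (also called caspase-11 in the mouse) binds bacterial lipopolysaccharide directly. Casp1 (chromosome 9, 5298517 to 5307265, plus strand) had 159 and 223 CPM in WT1 and WT2 and 90.6 and 175 CPM in KO1 and KO2. Each KO value lay below its WT counterpart of the same number, but KO2 lay above WT1. The log2FC was -0.52 (95% CI -1.53 to 0.48, edgeR adjusted p = 0.933), with log2 ratios of -0.81 (KO1 to WT1) and -0.35 (KO2 to WT2). It was -1.08 without KO2 and -0.12 without KO1, and it was below 0 in every alternative run. Casp4 (chromosome 9, 5308828 to 5336783, plus strand) had 26.9 and 164 CPM in WT1 and WT2 and 16.2 and 126 CPM in KO1 and KO2. As for Casp1, KO was lower within each number (log2 ratios of -0.73 and -0.39). The pooled log2FC of -0.43 had a 95% CI from -3.37 to 2.51 (edgeR adjusted p = 0.982). It became 1.36 without WT2 and 0.40 without KO1, and was -2.57 without KO2 and -1.21 without WT1. As for Nlrp3, these fits left the numbers unequal between the genotypes and cannot separate genotype from number.

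Gsdmd, the gene of gasdermin D, had 54.0 and 85.9 CPM in WT and 49.6 and 76.3 CPM in KO (chromosome 15, 75862339 to 75867404, plus strand). The 2 genotypes overlapped, and the log2 ratios within the numbers were alike at -0.12 and -0.17. The log2FC of -0.15 (95% CI -1.05 to 0.74, edgeR adjusted p = 0.981) became 0.13 without KO1 and 0.19 without WT2.

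**Figure D2:**
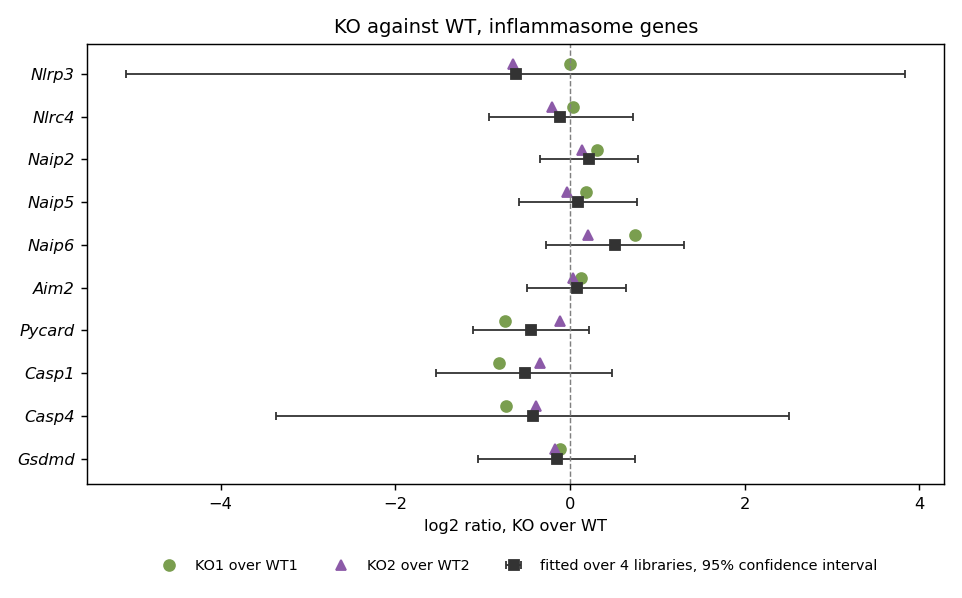
Log2 ratio of KO over WT for the 10 inflammasome genes, with the value fitted over the 4 libraries as black squares (bars, 95% confidence intervals), KO1 over WT1 as green circles and KO2 over WT2 as purple triangles. All 10 confidence intervals include 0, and those of Nlrp3 (-5.08 to 3.84) and Casp4 (-3.37 to 2.51) are the widest.

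The width of the intervals of Nlrp3 and Casp4 came with the difference between the libraries of the same genotype, which was therefore compared itself, with genotype as a second term. Between the libraries numbered 2 and those numbered 1, Nlrp3 and Casp4 were called, both higher in number 2, where 5.51% of all tested genes were called higher and 3.46% lower. These 2 genes were among those called under each alternative, including those that left out a library. Both libraries of number 2 lay above both of number 1 for 6 of the 10 genes, against 25.2% of all tested genes, and below for 1, Naip5, against 23.2%. The 6 were Nlrp3, Nlrc4, Aim2, Casp1, Casp4 and Gsdmd. The median log2FC over the 10 genes was 0.30, beside -0.02 over all tested genes.

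Nlrp3 was 32.7-fold higher in WT2 than in WT1 and 20.8-fold higher in KO2 than in KO1. The fitted log2FC was 4.70 (SE 0.29, edgeR adjusted p = 1.26e-55), and 0.346% of the tested genes had a larger one. For Casp4 the folds were 6.10 in WT and 7.77 in KO, and the log2FC was 2.78 (SE 0.24, edgeR adjusted p = 1.37e-27). Both p-values come from a comparison added after the data were seen, and they measure only the spread between these libraries. Casp1 and Gsdmd were higher in number 2 at an edgeR adjusted p of 0.0152 and 0.0365, but by log2FC of 0.72 and 0.65, under the limit of 1. With no genotype term the adjusted p were 0.361 and 0.139. Casp1 passed both limits without WT1, with 1.13, and its value was 0.84 without KO2, 0.47 without WT2 and 0.32 without KO1. The remaining 6 genes did not pass the test. Among them Naip6 and Naip5 had the most negative log2FC, at -0.46 and -0.38 (edgeR adjusted p = 0.208 and 0.332), and that of Naip6 was -0.077 without KO1 and -0.82 without WT1. Nlrc4 had 0.46 (edgeR adjusted p = 0.265). Naip2 gave 0.10 (-0.048 without WT1), Aim2 0.14, and Pycard -0.16 (0.21 without WT1), with edgeR adjusted p of 0.853, 0.793 and 0.751.

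The proportions among the transcripts differed with the number too. Per length, Casp4 was 0.0521 and 0.0551 of Casp1 in WT1 and KO1 and 0.227 and 0.221 of it in WT2 and KO2. Nlrp3 was 0.0155 and 0.0259 of Pycard in WT1 and KO1 and 0.703 and 0.487 of it in WT2 and KO2. The second ratio was higher in KO within number 1 and lower in KO within number 2. The ratio of Naip6 to Naip5 was higher in both KO libraries, 0.690 and 0.584 against 0.470 and 0.498 in WT. This ratio depends on how reads shared by the copies were assigned, which is not given, and it was not tested.

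**Figure D3:**
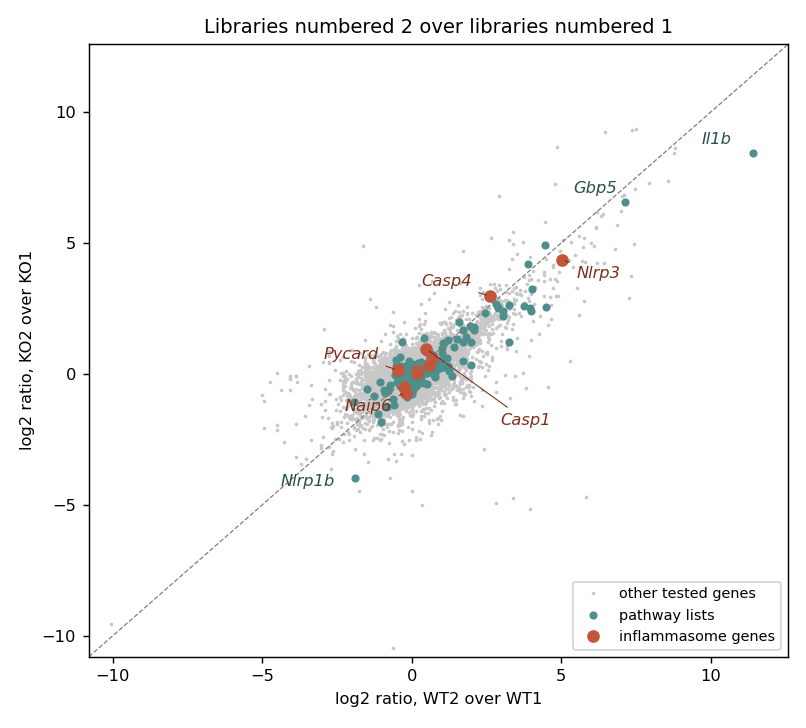
Log2 ratio of the library numbered 2 over that numbered 1 in WT (x axis) and KO (y axis) for the tested genes (grey), the pathway lists (green) and the inflammasome genes (red), with the diagonal dashed. Nlrp3 and Casp4 lie at the upper right near the diagonal, and Il1b is farther right, with 6783 counts in WT2 and 1294 in KO2.

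The genes whose pattern over the 4 libraries was most like that of Nlrp3, Casp4 and Casp1 were looked for among 8080 genes with a mean of at least 10 CPM, by the root mean square difference of centred log2 CPM. For Nlrp3 these were Cdc42ep2 (0.0848), a Cdc42 effector, and Tlr2 (0.176), the receptor of bacterial lipopeptides, and only these 2 genes came within 0.2. Tlr2 was counted 346 and 10528 times in WT1 and WT2, and KO held 417 and 11430. For Casp4 they were Gdf15 (0.102), a stress-induced cytokine, and Mob3b (0.134), with 10 genes within 0.2. Casp1 had a commoner pattern, with 108 genes within 0.2, the nearest being Fam96b (0.055) and Rwdd1 (0.0573). These distances are over 4 libraries and describe them only.

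The wider pathway was followed in 7 lists with 178 symbols, of which 174 were found and 155 tested. In KO against WT, with genotype as the only term, 0 of the 155 were called (other settings are given at the end). Of the 155, 7 had an unadjusted p under 0.05. KO1 and KO2 exceeded WT1 and WT2 for 18 of them and lay below for 30, where these shares over all tested genes were 20.0% and 16.9%. The median log2FC was -0.07, beside 0.041 over all tested genes. Between the libraries numbered 2 and 1, 31 of the 155 were called higher and 7 lower, where 5.51% and 3.46% of all tested genes were, and the median was 0.21. The 38 calls were made with a genotype term. With all 4 libraries and no such term there were 23, and the fits that left out a library, which had no such term either, gave 23 without WT1, 23 without WT2, 25 without KO1 and 27 without KO2.

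Other sensors, 11 of 16 of them tested, gave no call between the genotypes, and 0 of the 11 separated them. Over all tested genes, 20.0% lay above and 16.9% below without overlap. The median log2FC of the 11 sensors was 0.12. By number, 3 were called higher (Mefv, Nod2 and Ciita) and 5 lower (Naip1, Nlrp1a, Nlrp1b, Nlrp10 and Nlrc3). Mefv encodes the sensor pyrin. It had 4.44 and 97.7 CPM in WT and 2.09 and 64.1 CPM in KO, with a log2FC by number of 4.68 (SE 0.29). The opposite was seen for Naip1, a further NAIP gene, with 7.77 and 3.83 CPM in WT and 12.4 and 3.45 CPM in KO. Nlrp1b, the target of anthrax lethal factor, went from 3.14 to 0.816 CPM in WT and from 4.40 to 0.254 CPM in KO between the numbers, and Nlrp1a from 3.51 to 1.95 and from 3.86 to 1.57 CPM. Their log2FC by number were -1.44, -2.87 and -1.08. With all 4 libraries and no genotype term these 3 were not called (-1.47, -2.83 and -1.07, edgeR adjusted p = 0.0916, 0.0952 and 0.220). The fits without a library also had no genotype term, and in them Naip1 ran from -1.77 to -1.09, Nlrp1b from -3.87 to -2.19 and Nlrp1a from -1.24 to -0.92. In KO against WT the log2FC were -0.62 for Mefv, 0.45 for Naip1, -0.0079 for Nlrp1a and 0.23 for Nlrp1b (edgeR adjusted p = 0.982, 0.970, 0.998 and 0.990). All 4 changed sign when a single library was left out, in fits that left the numbers unequal between the genotypes. Mefv became 2.86 without WT2 and 0.33 without KO1, and Naip1 became -0.74 without KO1 and -0.0064 without WT2. Nlrp1a became 0.49 without KO2 and 0.48 without WT1, and Nlrp1b -2.93 without KO1 and -0.47 without WT2. Nlrp6, Nlrp12, Nlrp9b, Nlrp2 and Nlrp14 had 0 counts in all libraries, which allows up to 0.152 to 0.188 CPM.

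The PYHIN family, the relatives of Aim2 on chromosome 1, had 9 of 12 genes tested. Between the genotypes 0 were called. For 3 of the 9, both KO libraries lay below both WT libraries, and for 0 above, against 16.9% and 20.0% of all tested genes. The median log2FC was -0.68. Ifi209 was counted 626 and 636 times in WT1 and WT2 and 465 and 324 times in KO1 and KO2, a log2FC of -0.92 (SE 0.28, edgeR adjusted p = 0.528). Pydc4 was counted 11 and 28 times in WT1 and WT2, and 3 in each KO library (edgeR adjusted p = 0.387), and Ifi214 had 23 in each WT library and 21 and 13 in KO (edgeR adjusted p = 0.920). Genes of this family are close copies, and reads may be shared among them. By number 3 were called, all higher.

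Downstream of the caspases, the list of substrates and effectors had 14 of 18 genes tested, with 0 called between the genotypes and a median of -0.32. KO1 and KO2 exceeded WT1 and WT2 for 2 and lay below for 6, against 20.0% and 16.9% of all tested genes. By number 2 were called higher and 2 lower. IL-1β is the main cytokine that caspase-1 releases. Il1b had 2 and 3 counts in WT1 and KO1 and 6783 and 1294 in WT2 and KO2. WT2 was 3453-fold above WT1 (95% counting interval 955 to 28514) and KO2 408-fold above KO1 (139 to 1983), and 0% of the tested genes had a larger log2FC by number. It was called by number in the fits without WT2, KO1 or KO2, and not in that without WT1 (edgeR adjusted p = 0.0712). Within number 2, WT2 was 6.48-fold above KO2, a difference between single libraries with no replicate. Il1a, which encodes IL-1α, had 35.0 and 561 CPM in WT and 32.8 and 173 CPM in KO. By number its log2FC was 3.20 (SE 0.26), and it was not called without WT1 or KO1 (3.48 and 3.39). With genotype as the only term, the log2FC of KO against WT were -2.69 for Il1b and -1.53 for Il1a (SE 2.95 and 1.35, edgeR adjusted p = 0.962 and 0.952). Without WT2, in a fit that left the numbers unequal between the genotypes, they were 7.95 and 1.52. Il18 is the other caspase-1 substrate among the cytokines. It had 6.90 and 10.5 CPM in WT and 4.51 and 6.35 CPM in KO, with both KO values below both WT values. Its log2FC was -0.68 (SE 0.36, edgeR adjusted p = 0.854), and it lay between -0.96 and -0.38 when single libraries were left out. Ninj1, needed for the final rupture of the membrane, had 513 and 482 CPM in WT and 330 and 459 CPM in KO (log2FC -0.34, or -0.60 to -0.11 when single libraries were left out, edgeR adjusted p = 0.934). Gsdme, cut by caspase-3, had 12.3 and 5.08 CPM in WT and 8.85 and 4.93 CPM in KO (-0.34, edgeR adjusted p = 0.971), and became 0.44 without WT1 and 0.018 without KO2. The membrane repair gene Chmp2a had 278 and 219 CPM in WT and 153 and 191 CPM in KO (-0.53, edgeR adjusted p = 0.848). Il33 was counted 4 and 17 times in WT1 and WT2, and KO held 25 and 34 (1.22, or 0.52 to 2.57 when single libraries were left out, edgeR adjusted p = 0.893). Stromal markers were higher in the same KO libraries, as given above.

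**Figure D4:**
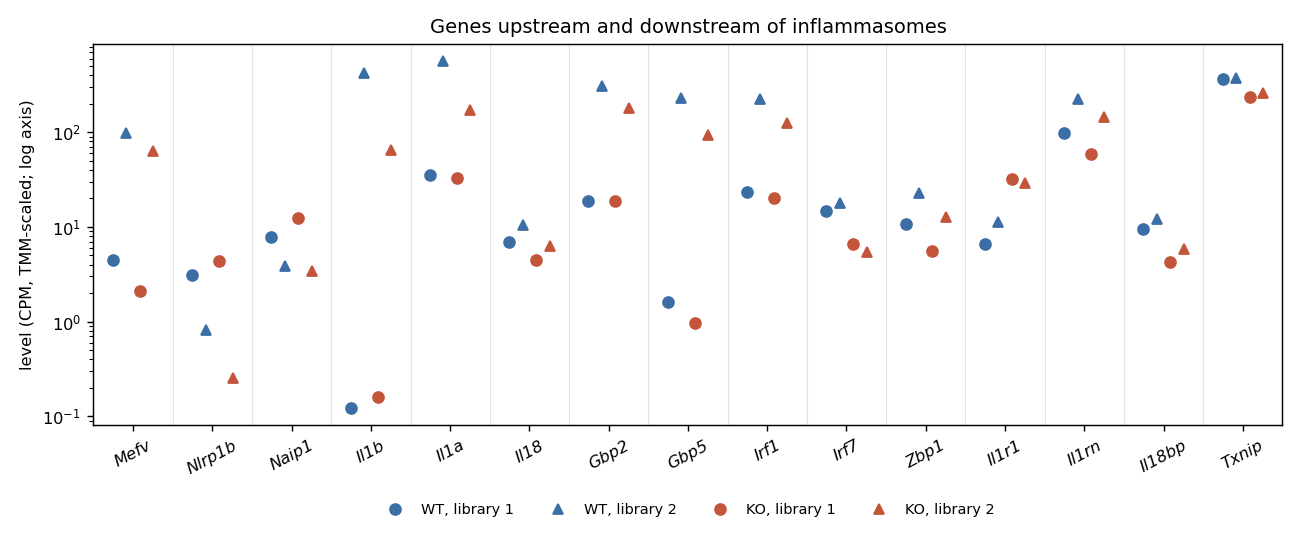
Level of 15 genes of the inflammasome pathway in the 4 libraries, in CPM on a log axis, with WT in blue, KO in red, libraries numbered 1 as circles and those numbered 2 as triangles. Il1b, Il1a, Gbp2, Gbp5, Irf1, Mefv, Zbp1 and Il1rn lie higher in both libraries numbered 2, and Nlrp1b and Naip1 lower. Il1r1, Irf7, Il18, Il18bp and Txnip separate by genotype, with Il1r1 at 6.53 and 11.2 CPM in WT and 32.2 and 29.4 CPM in KO.

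Of the regulators that license NLRP3, 39 of 42 were tested, with 0 called between the genotypes and a median of 0.059. Without overlap, 6 lay above WT and 6 below, against 20.0% and 16.9% of all tested genes. Nek7, which bridges NLRP3 subunits, had 39.0 and 37.0 CPM in WT and 47.8 and 37.6 CPM in KO (log2FC 0.17, edgeR adjusted p = 0.965), and gave -0.013 without KO1 and -0.11 with the length trend removed. Txnip, a thioredoxin-binding protein reported to bind NLRP3, had 367 and 374 CPM in WT and 238 and 261 CPM in KO. Both KO values were lower, and the log2FC was -0.57 (SE 0.22, 95% CI -1.13 to -0.0079, edgeR adjusted p = 0.739). It lay between -0.65 and -0.50 when single libraries were left out. P2rx7, the ATP-gated channel that lets potassium out, had 40.0 and 69.2 CPM in WT and 51.1 and 52.9 CPM in KO (-0.07, edgeR adjusted p = 0.990), and gave 0.34 without WT2. Panx1 (11.0 and 12.7 against 11.3 and 15.1 CPM, edgeR adjusted p = 0.973) had a log2FC of 0.16 and gave -0.073 without KO2. Ddx3x, an RNA helicase that is shared between stress granules and NLRP3, had 359 and 490 CPM in WT and 475 and 533 CPM in KO, a log2FC of 0.25 (0.04 to 0.46 when single libraries were left out, edgeR adjusted p = 0.961). Clic1 and Sugt1 were below WT in both KO libraries, with log2FC of -0.54 and -0.47 (edgeR adjusted p = 0.814 and 0.852). By number, 4 genes of this list were called, all higher.

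Interferon-linked inducers and guanylate-binding proteins, with 34 of 39 tested, had 11 genes higher in number 2 and 0 lower, and 0 called between the genotypes. The median log2FC was 0.39 by number and -0.18 between the genotypes. Gbp2 and Gbp5 encode GTPases that open bacteria and their lipopolysaccharide to caspase-4. Gbp5 had 1.60 and 230 CPM in WT and 0.966 and 92.8 CPM in KO. Gbp2 had 19.0 and 308 CPM in WT and 18.7 and 179 CPM in KO. Irf1, the factor that drives their transcription, had 23.4 and 223 CPM in WT and 20.2 and 126 CPM in KO. Their log2FC by number were 6.90, 3.64 and 2.95 (SE 0.32, 0.26 and 0.25). Between the genotypes they were -1.3, -0.73 and -0.76 (edgeR adjusted p = 0.973, 0.978 and 0.971). Without WT2, in a fit that left the numbers unequal between the genotypes, they became 4.83, 2.35 and 1.61. Gbp2 and Irf1 were also above 0 without KO1, at 0.13 and 0.028. Zbp1, a sensor of Z-form nucleic acid, had 10.7 and 22.7 CPM in WT and 5.63 and 12.8 CPM in KO (-0.86, or -1.57 to -0.25 when single libraries were left out, edgeR adjusted p = 0.904). By number its log2FC was 1.13 (edgeR adjusted p = 0.000125), and it was not called with no genotype term (1.12, edgeR adjusted p = 0.262). For 5 of the 34 both KO libraries lay below both WT libraries, and for 0 above, against 16.9% and 20.0% of all tested genes. Irf7, the factor that amplifies type I interferon, showed the smallest p of them, with 14.7 and 17.9 CPM in WT and 6.65 and 5.39 CPM in KO. Its log2FC was -1.44 (SE 0.28, edgeR adjusted p = 0.284) and lay between -1.60 and -1.3 when single libraries were left out. It was called by the DESeq2 Wald test, with -1.48. Irf9 and Adar followed, with -0.45 and -0.30 (edgeR adjusted p = 0.853 and 0.949), and Adar gave -0.53 to -0.074 when single libraries were left out. Irf2, which drives Gsdmd, had 17.8 and 21.1 CPM in WT and 20.5 and 18.4 CPM in KO (0.0037, edgeR adjusted p = 0.998), and gave -0.11 without WT1, -0.072 without KO1 and -0.035 with DESeq2 size factors. Irf8, which drives Naip genes, had 90.4 and 57.9 CPM in WT and 119 and 61.4 CPM in KO (0.28, edgeR adjusted p = 0.967), and gave -0.27 without KO1 and -0.04 without WT2.

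Among other death proteases and kinases, 25 of 26 were tested and 0 called between the genotypes, with a median of -0.089. Without overlap, 4 lay above WT and 5 below, against 20.0% and 16.9% of all tested genes. By number 4 were called, all higher. Casp8, the apoptotic caspase that can also cut gasdermin D, had 90.9 and 74.4 CPM in WT and 69.1 and 62.9 CPM in KO (log2FC -0.32, or -0.50 to -0.17 when single libraries were left out, edgeR adjusted p = 0.928). Ripk3 and Mlkl, the kinase and the effector of necroptosis, had log2FC of -0.18 and -0.30 (edgeR adjusted p = 0.964 and 0.924). Bax had 188 and 191 CPM in WT and 109 and 143 CPM in KO (-0.59, edgeR adjusted p = 0.793). Casp12, a neighbour of Casp1 and Casp4 on chromosome 9 (5345430 to 5373032), was counted 10 and 24 times in WT and 54 and 61 times in KO (1.49, SE 0.52, or 0.99 to 2.24 when single libraries were left out, edgeR adjusted p = 0.662). Xiap was counted 277 and 358 times in WT1 and WT2, while KO held 436 and 1205 (1.10, edgeR adjusted p = 0.825), and gave 0.24 without KO2.

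Inhibitors and genes of IL-1 family signalling, with 25 of 28 tested, had 0 calls between the genotypes and a median of -0.038. Without overlap, 6 lay above WT and 5 below, against 20.0% and 16.9% of all tested genes. By number 5 were called higher and 1 lower. Il1r1, the receptor that IL-1 acts on, had 6.53 and 11.2 CPM in WT and 32.2 and 29.4 CPM in KO. Both KO values were well above both WT values. The log2FC was 1.80 (SE 0.33, 95% CI 0.97 to 2.63, edgeR adjusted p = 0.263), between 1.46 and 2.20 when single libraries were left out, and it was called by edgeR's exact test (1.80) and the DESeq2 Wald test (1.76). Il1r1 is also made by fibroblasts. Stromal markers moved the same way in these libraries, and in bulk RNA more cells of a type and more RNA per cell cannot be told apart. Il18bp, the secreted antagonist of IL-18, had 9.62 and 12.0 CPM in WT and 4.24 and 5.79 CPM in KO. Its log2FC was -1.11 (SE 0.31, edgeR adjusted p = 0.479), between -1.35 and -0.90 when single libraries were left out. Il1rn, the IL-1 receptor antagonist, had 97.5 and 227 CPM in WT and 59.0 and 144 CPM in KO (-0.68, edgeR adjusted p = 0.949), and gave 0.022 without WT2. By number it was higher, with 1.25 (edgeR adjusted p = 1.47e-06), and was not called with no genotype term (1.25, edgeR adjusted p = 0.146). Sigirr was counted 15 and 11 times in WT1 and WT2, and 8 and 6 times in KO1 and KO2 (-1.13, edgeR adjusted p = 0.846). Serpinb1a, an inhibitor of inflammatory caspases, had 39.0 and 32.3 CPM in WT and 32.0 and 31.6 CPM in KO (-0.16, or -0.33 to -0.023 when single libraries were left out, edgeR adjusted p = 0.965).

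Genes that were higher in number 2 were mostly lower in KO2 than in WT2. This was so for both inflammasome genes called by number, for 29 of the 31 pathway genes (93.5%) and for 488 of all 684 genes called higher by number (71.3%). Between KO1 and WT1 it was so for 2, for 16 (51.6%) and for 252 (36.8%). WT2 and KO2 enter both the choice of these genes and the ratio, so the shares are a description of 4 libraries.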

How the data were processed

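Total RNA of cultured macrophages was sequenced on an Illumina NovaSeq instrument after a VAHTS Universal V6 library preparation, with 2 WT and 2 KO libraries grouped by their GEO titles. The submitters' processing notes name HISAT2 2.0.4 and StringTie 1.3.3b. The authors deposited whole-number counts per gene, which were not normalised, and FPKM, scaled by gene length and library total. The notes name the build mm39, but the positions in the file are those of GRCm38 (27682 of 34267 shared genes had the same start and end in GENCODE M21, including 8 of the 10 inflammasome genes), so positions are given on GRCm38. Whether counting used the strand is not given in the sources used here. Totals were 17004167, 16926884, 16724241 and 19747909 counts in WT1, WT2, KO1 and KO2.

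Counts were filtered with filterByExpr (minimum count 10, minimum total 15), scaled by TMM and tested two-sided with glmQLFit and glmQLFTest in edgeR 4.0.16 (R 4.3.3), with genotype as the only term and Benjamini-Hochberg adjustment over all 12418 genes. Calls required an adjusted p under 0.05 together with a log2 fold change above 1 or below -1. The F statistic of this test gave each standard error and 95% confidence interval. Log2 ratios between single libraries had 0.5 counts added, and counting intervals were exact binomial (Clopper-Pearson, 95%), which cover counting error only. The comparison of libraries numbered 2 with those numbered 1, with genotype as a second term, was added after seeing the data. With a library left out, the number was its only term, and the lone library of a group was assumed to vary like the others. Fits of KO against WT without a library had no term for the number and left it unequal between the genotypes. The alternatives were no filter on low counts, a minimum mean CPM of 1, scaling by DESeq2 size factors, each library left out, a term for the replicate number, a loess trend with gene length (span 0.5) removed, the DESeq2 1.42.0 Wald test, edgeR's exact test, limma 3.58.1 on log2(FPKM + 1) or log2(FPKM + 0.1), and no minimum fold change. The code was tested on simulated counts.

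The members and lists were chosen with earlier results of these data known. Beside the members, the genes named were a set taken from each list and, per list, up to 3 whose libraries did not overlap between the genotypes with the smallest p. Nod2, Ciita, Nlrp10 and Nlrc3 were named after their values were seen. Symbols absent from the file were matched by Ensembl identifier, and Ifi209, Ifi214 and Gsdme are given by their current symbols. Promoters came from RefSeq (GRCm38.p6), with 9 of 10 members matched, and coding sequences from GENCODE M21.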

Additional observations from a re-analysis of the deposited data

How the results depend on the processing

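There were 2 libraries per genotype, and each inflammasome gene had at least 47 counts in each library. The count of inflammasome genes called between KO and WT was 0 under all 15 alternatives. That of pathway genes, 0, was 7 with the replicate block, 6 with the replicate block and length trend removed, 2 in the DESeq2 Wald test and 1 in edgeR's exact test. The labels do not say what the replicate number marks, and 2 pairs cannot establish a pairing. Across genes, WT1 and KO1 deviated from the mean of their genotype with a correlation of 0.727. The replicate block moved the calls over all genes from 0 to 664, or 401 with the length trend also removed. With the block, 0 inflammasome genes were called, and Pydc4, Il1b, Irf7, Gbp5, Casp12, Il18bp and Il1r1 were. With the length trend also removed, Casp12 and Il18bp were not called and Ifi209 was (-1.01, edgeR adjusted p = 0.0211). G3bp1 had -0.60 with the replicate block (edgeR adjusted p = 0.0853) and -0.76 with the length trend also removed (edgeR adjusted p = 0.0263), under the fold limit.

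Single log2 fold changes of KO against WT changed sign as follows. With the length trend removed they were -0.029 for Naip5, -0.043 for Aim2 and -0.11 for Nek7. With the replicate block and length trend removed they were -0.038 for Naip5, -0.043 for Aim2, 0.003 for Gsdmd, -0.24 for Nlrp1b and -0.11 for Nek7, and with the replicate block alone -0.057 for Nlrp1b. In limma on log2(FPKM + 1) and log2(FPKM + 0.1) they were 0.042 and 0.062 for Nlrc4, 0.005 and 0.0056 for Gsdmd, 0.05 and 0.074 for Nlrp1a, and 0.11 and 0.13 for P2rx7. For Irf2 they were -0.035 with DESeq2 size factors and in the DESeq2 Wald test, and -0.012 with no filter. The cause was not tested.

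Over the 4 fits that left out a library, values ran from -4.08 to 3.41 for Nlrp3, -0.37 to 0.18 for Nlrc4, -0.17 to 0.31 for Naip5, -0.016 to 0.14 for Aim2, -2.57 to 1.36 for Casp4, -0.50 to 0.19 for Gsdmd, -0.74 to 1.09 for Naip1, -0.79 to 0.49 for Nlrp1a, -2.93 to 1.5 for Nlrp1b, -4.61 to 2.86 for Mefv, -10.31 to 7.95 for Il1b, -3.19 to 1.52 for Il1a, -0.87 to 0.44 for Gsdme, -0.013 to 0.32 for Nek7, -0.41 to 0.34 for P2rx7, -0.073 to 0.35 for Panx1, -3.13 to 2.35 for Gbp2, -6.90 to 4.83 for Gbp5, -2.62 to 1.61 for Irf1, -0.11 to 0.10 for Irf2, -0.27 to 0.67 for Irf8 and -1.47 to 0.022 for Il1rn.

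Between the libraries numbered 2 and 1, the 2 inflammasome genes called became 4 with no minimum fold change, and 2 or 3 without a library. Pathway genes called went from 38 to 23 with no genotype term and were between 23 and 27 without a library, in fits that also had no genotype term. Without a library, values ran from -0.048 to 0.26 for Naip2 and from -0.52 to 0.21 for Pycard.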
